A study of Mus musculus with 12 samples.

Results

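Prss34, Mcpt8, Fcer1a, Ms4a2, Cpa3, Hdc, Gzmb and Il4 are 8 genes of the basophil and mast cell programme, and their RNA was followed in bone marrow haematopoietic stem cells (HSCs) with and without RUNX1. They were found by gene symbol among the 35869 genes of the count table; all 8 were present, and all 8 were among the 19395 genes with enough counts to be tested. They were chosen by their log2 fold changes and levels in these same data, RUNX1 knockout (KO) against control (WT) cells in both sorted fractions. Those differences are therefore described with values and errors, without a test. The same holds for the dependence of the genotype difference on the fraction, which is computed from them. The comparisons of the sorted fractions within each genotype were not themselves used for the choice, and these were tested. They use the same libraries, so the tests are not independent of the choice.

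RNA-seq was run on HSCs sorted by flow cytometry into a CD41-positive (CD41pos) and a CD41-negative (CD41neg) fraction, where CD41 is the integrin alpha-IIb chain of megakaryocytes and platelets. KO mice had the genotype MxCre1+/-,RUNX1f/f and WT mice MxCre1-/-,RUNX1f/f, so both carried the floxed allele and only KO mice carried the recombinase. KO and WT mice alike were injected 4 times with poly(I:C), the double-stranded RNA that switches on the interferon-inducible Mx1 promoter, and cells were taken 4 weeks after injection. The design gave 4 groups of 3 libraries, namely CD41pos KO, CD41pos WT, CD41neg KO and CD41neg WT. The Mx1 promoter responds to interferon in many tissues, so deletion is not limited to HSCs, and the age of the mice is not among the labels used here.

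Basophils and mast cells are granulocytes that carry the high-affinity receptor for IgE on their surface and release histamine, proteases and type 2 cytokines when that receptor is cross-linked. The receptor is built from an IgE-binding alpha chain (Fcer1a), a signal-amplifying beta chain (Ms4a2) and a gamma chain shared with other receptors (Fcer1g). Histidine decarboxylase (Hdc) makes histamine, Cpa3 is the carboxypeptidase of mast cell granules, Prss34 and Mcpt8 are serine proteases of mouse basophil granules, Gzmb is granzyme B of cytotoxic lymphocytes and some mast cells, and Il4 is the type 2 cytokine interleukin 4. Both lineages descend from marrow progenitors in which GATA2 is active, and in mice RUNX1 is known to be needed for normal basophil numbers.

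Libraries held between 44108035 and 58946457 counted reads. Levels per gene length are the authors' TPM values, and CPM are read counts scaled to library size with TMM factors. The targeted gene Runx1 measured 270.4 to 382 CPM in CD41pos KO and 141 to 159 CPM in CD41pos WT libraries, and 157 to 171 CPM in CD41neg KO and 65.7 to 90.5 CPM in CD41neg WT libraries. Since the total includes whatever exons recombination leaves in place, and no label names the deleted stretch, it checks nothing about the deletion. HSC markers were present in every library, with Kit at 184 to 1044 CPM, Slamf1 at 21.4 to 139.8 CPM and Procr at 6.24 to 73.3 CPM. The 12 genes listed with them include some that are not positive markers of HSCs, such as Cd48 and Flt3. Of the 12, edgeR's test called 2 higher in KO (Cd48, Slamf1) and 1 lower (Hoxb5) in CD41pos HSCs, beside 9.79% and 7.27% of all tested genes. In CD41neg HSCs it called 3 higher (also Itga2b) and 1 lower, beside 3.85% and 3.97%. Itga2b encodes CD41, the marker used for sorting. It averaged 1118 CPM in CD41pos KO against 621 CPM in CD41pos WT HSCs, and 247 CPM in CD41neg KO against 103 CPM in CD41neg WT HSCs. Cd48 gave log2 fold changes of 1.82 ± 0.17 in CD41pos (edgeR adjusted p = 0.000466) and 1.79 ± 0.17 in CD41neg HSCs (0.000409). Hoxb5 gave -1.37 ± 0.27 (0.00824) and -1.01 ± 0.27 (0.0428). The part of these 12 genes in the differences of the 8 genes was not tested. Within WT, 4 of 6 libraries are set apart below by their library numbers, up to 6 (CD41pos WT 1 and 4, CD41neg WT 2 and 4). They had 21973 to 23306 genes with a count, against 23494 to 27097 in the other 8 libraries, ranges that lie close. Their deviations from the group means were not all alike, with r = 0.57 for library numbers 5 and 6 and -0.13 for 1 and 2. WT libraries are numbered 1 to 10 and KO libraries 13 to 22, so library order and genotype cannot be told apart. KO libraries carry the numbers KO 1 to 3 in both fractions, and same-numbered ones deviated together from their group means (r = 0.43, 0.61 and 0.47 over 11386 genes), whereas WT libraries with a shared number gave 0.1 and -0.48. No label says what a number stands for. Separate animals are not stated for every library, and p-values therefore reflect only library-to-library spread, part of which can be technical.

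The RefSeq promoter windows of 5 of the 8 genes are shown, those of the 3 genes that were nearly absent from KO cells (Prss34, Mcpt8, Fcer1a) and, for contrast, those of Cpa3 and Ms4a2, whose mean levels were higher in KO in both fractions. Each runs from 250 bases before to 50 bases after the annotated start on GRCm38.p6, in the direction of the gene. Capitals mark copies, on either strand, of a pair of motifs. The core of the motif bound by RUNX proteins was searched as TGTGGT. It reads ACCACA on the opposite strand. The GATA motif was searched as AGATAA. It reads TTATCT on the opposite strand.
Prss34 (chr17:25298144-25298443, plus strand): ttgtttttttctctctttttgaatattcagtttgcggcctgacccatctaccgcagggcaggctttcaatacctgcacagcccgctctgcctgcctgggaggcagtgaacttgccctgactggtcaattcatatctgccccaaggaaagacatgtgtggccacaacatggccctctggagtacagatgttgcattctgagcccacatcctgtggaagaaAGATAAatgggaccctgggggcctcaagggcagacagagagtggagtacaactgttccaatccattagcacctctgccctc
Mcpt8 (chr14:56085148-56085447, minus strand): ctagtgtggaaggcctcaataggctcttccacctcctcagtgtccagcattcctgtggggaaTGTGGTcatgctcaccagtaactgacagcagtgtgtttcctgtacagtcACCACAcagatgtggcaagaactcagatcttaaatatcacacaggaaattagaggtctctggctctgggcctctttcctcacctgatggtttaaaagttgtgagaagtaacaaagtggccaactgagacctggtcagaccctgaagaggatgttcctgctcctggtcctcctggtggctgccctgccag
Fcer1a (chr1:173227180-173227479, minus strand): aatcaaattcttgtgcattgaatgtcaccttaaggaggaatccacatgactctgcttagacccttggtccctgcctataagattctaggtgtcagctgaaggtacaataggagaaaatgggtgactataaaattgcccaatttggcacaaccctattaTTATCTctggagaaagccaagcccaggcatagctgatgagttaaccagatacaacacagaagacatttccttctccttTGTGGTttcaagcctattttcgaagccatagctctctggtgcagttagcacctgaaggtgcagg
Cpa3 (chr3:20242132-20242431, minus strand): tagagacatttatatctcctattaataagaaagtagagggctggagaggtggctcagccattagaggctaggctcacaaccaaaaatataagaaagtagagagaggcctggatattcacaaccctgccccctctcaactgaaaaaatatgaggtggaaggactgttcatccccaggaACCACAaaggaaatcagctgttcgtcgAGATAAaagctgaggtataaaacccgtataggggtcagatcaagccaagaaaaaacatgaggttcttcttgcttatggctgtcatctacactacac
Ms4a2 (chr19:11623670-11623969, minus strand): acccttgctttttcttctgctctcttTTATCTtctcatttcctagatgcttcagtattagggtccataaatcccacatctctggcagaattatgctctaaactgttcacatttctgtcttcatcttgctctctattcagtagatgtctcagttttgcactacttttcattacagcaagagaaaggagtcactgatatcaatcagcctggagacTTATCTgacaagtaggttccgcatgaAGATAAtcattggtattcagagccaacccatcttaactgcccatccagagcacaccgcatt

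Mcpt8 held 2 copies of the RUNX core and no GATA motif, and Prss34 held 1 GATA motif and no RUNX core. Fcer1a and Cpa3 held 1 of each, and Ms4a2 held 3 GATA motifs and no RUNX core. Among the windows not shown, Gzmb held 2 RUNX cores, while Hdc and both windows of Il4 held neither motif. No copy overlapped another. Of all 32851 RefSeq windows of 300 bases, 16.8% held the RUNX core on either strand, 11.2% the GATA motif and 2.25% both. A match describes these letters in this window and is neither a binding site nor a cause.

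Prss34 and Mcpt8, the basophil granule proteases, were abundant in WT HSCs and close to nothing in KO HSCs. Prss34 (chr17:25298394-25300165, plus strand, GRCm38) measured 1.0, 1.2 and 0.8 TPM in CD41pos KO libraries 1, 2 and 3, against 467, 141 and 579.6 TPM in CD41pos WT libraries 1, 3 and 4. In CD41neg cells it measured 1.1, 1.2 and 0.5 TPM in KO libraries 1, 2 and 3, against 482, 87.5 and 452 TPM in WT libraries 2, 3 and 4. Every KO library lay far below every WT library of its fraction, and WT 3 was the lowest WT library in both. The fitted log2 fold change, KO over WT, was -8.75 ± 0.76 (SE) in CD41pos and -8.68 ± 0.76 in CD41neg HSCs, that is 431-fold and 410.5-fold lower in KO. Ordered from the lowest log2 fold change among 19395 genes, Prss34 was number 2 in CD41pos and number 4 in CD41neg HSCs.

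Mcpt8 (chr14:56082166-56085273, minus strand) measured 1.2, 0.4 and 1.5 TPM in CD41pos KO libraries and 150.4, 83.8 and 237 TPM in CD41pos WT libraries. In CD41neg cells all 3 KO libraries had 0.4 TPM, and the WT libraries had 198, 26.8 and 157 TPM. The groups did not overlap, and the log2 fold changes were -7.35 ± 0.74 in CD41pos and -8.50 ± 0.81 in CD41neg HSCs, numbers 13 and 5 from the lowest. KO values rested on few reads, between 19 and 45 per library for Prss34 and between 10 and 46 for Mcpt8. The ratio of Prss34 to Mcpt8 counts was 0.609 to 3.40 in KO libraries and 1.98 to 3.86 in WT libraries. The microRNA gene Mir6949 lies inside Mcpt8 on the same strand, and reads of the pair cannot be told apart. Libraries like these hold the RNA of many cells, so fewer cells of a type and less RNA per cell cannot be told apart for any of the 8 genes.

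Fcer1a and Ms4a2, the alpha and beta chains of the IgE receptor, went in opposite directions. Fcer1a (chr1:173221284-173227214, minus strand) measured 0.4, 1.4 and 0.7 TPM in CD41pos KO libraries, against 29.8, 6.5 and 37.8 TPM in CD41pos WT libraries. CD41neg KO libraries had 0.1, 0.3 and 0.1 TPM, from 2, 12 and 5 reads, and CD41neg WT libraries had 23.8, 3.5 and 23.6 TPM. As with the proteases, no KO library reached the lowest WT library, which was WT 3 in both fractions. The log2 fold changes were -5.02 ± 0.83 in CD41pos and -6.64 ± 0.94 in CD41neg HSCs.

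Ms4a2 (chr19:11615523-11623719, minus strand) was higher in CD41pos KO libraries, with 6.2, 9.7 and 6.4 TPM, against 4.3, 1.4 and 4.3 TPM in CD41pos WT libraries. In CD41neg cells the levels were 2.8, 2.2 and 2.8 TPM in KO and 2.7, 1.3 and 1.1 TPM in WT libraries. The CD41pos groups did not overlap, whereas CD41neg WT 2 reached into the KO range. Fitted differences were 1.03 ± 0.36 and 0.49 ± 0.36 on the log2 scale. Taking the chains of the receptor together, the TPM of Fcer1a over that of Ms4a2 was 0.0357 to 0.144 in the 6 KO libraries and 2.69 to 21.5 in the 6 WT libraries.

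**Figure D1:**
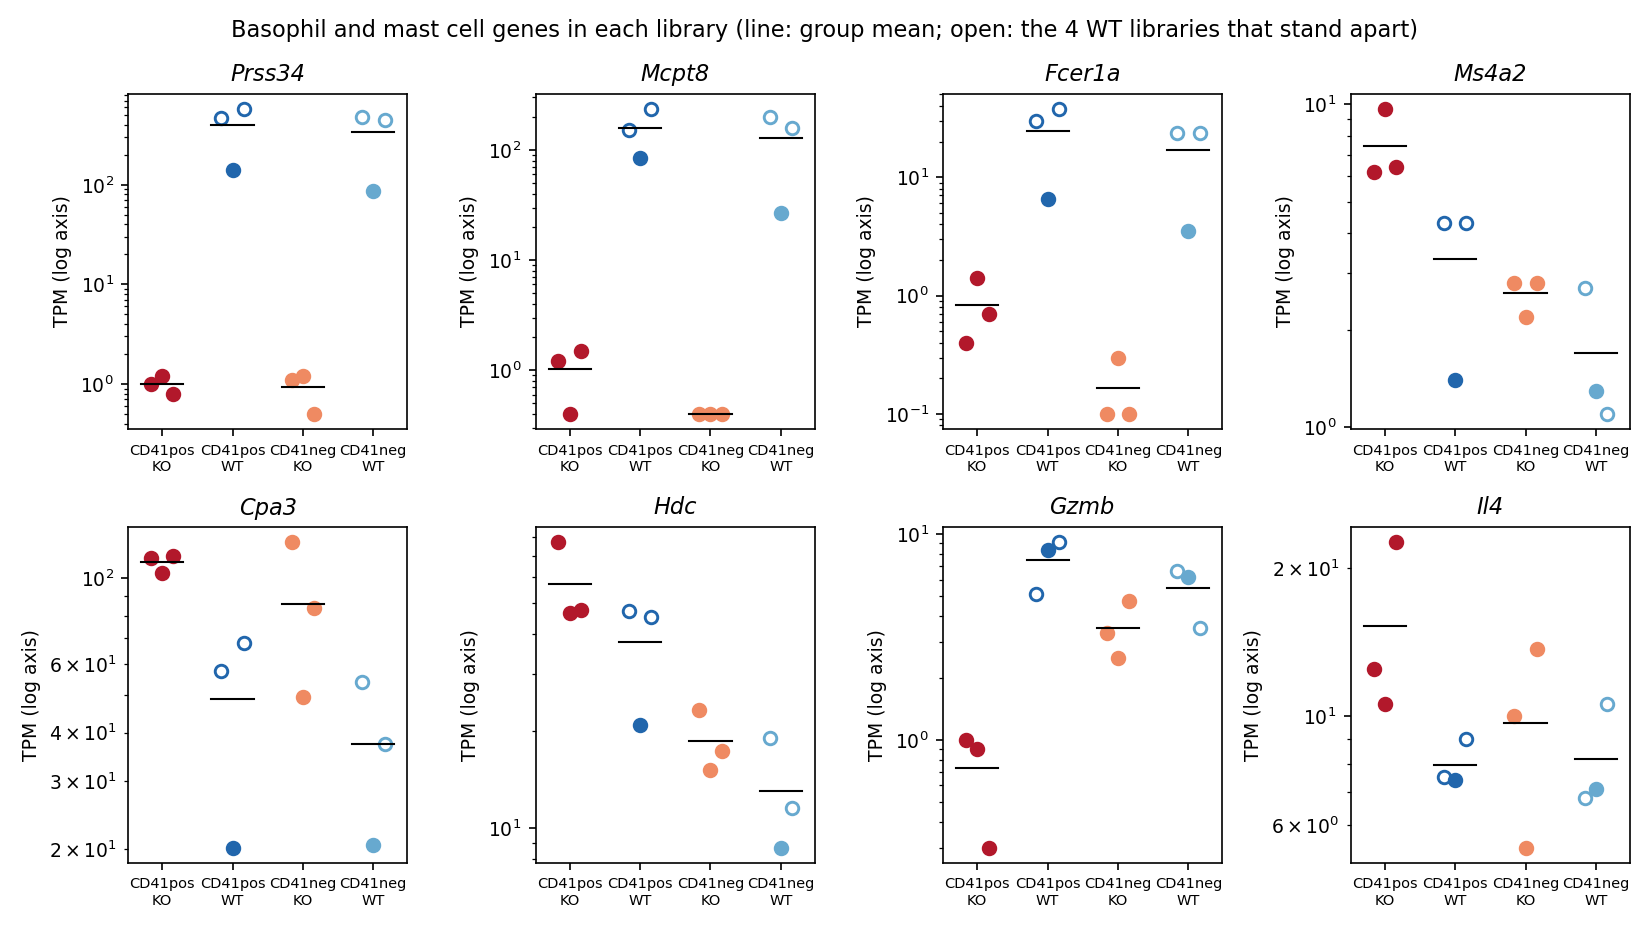
TPM on a log axis of the 8 genes in each library (points) of the 4 groups of 3, with the arithmetic group mean as a line. Open points are the 4 WT libraries set apart by their library numbers only, named in the figure as standing apart. Prss34, Mcpt8 and Fcer1a lie at most at 1.5 TPM in KO libraries and at least at 3.5 TPM in WT libraries, whereas Cpa3 and Ms4a2 have higher means in KO than in WT in both fractions.

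Cpa3 and Hdc, which early mast cell and basophil precursors express as well as mature cells, were abundant in HSCs of both genotypes. Cpa3 (chr3:20215620-20242181, minus strand) measured 113, 103 and 114 TPM in CD41pos KO libraries, against 57.6, 20.2 and 68.3 TPM in CD41pos WT libraries. CD41neg KO libraries had 124, 49.3 and 83.7 TPM, and CD41neg WT libraries had 54.1, 20.5 and 37.3 TPM. The CD41pos groups were separate and the CD41neg groups overlapped in KO 2 and WT 2, and WT 3 was again the lowest library in both fractions. Log2 fold changes were 1.05 ± 0.39 in CD41pos and 1.03 ± 0.39 in CD41neg HSCs. The microRNA gene Mir7007 lies inside Cpa3, and its reads cannot be separated from those of Cpa3.

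Hdc lies at chr2:126593667-126619299 on the minus strand. CD41pos KO libraries had 77.0, 46.4 and 47.5 TPM and CD41pos WT libraries 47.2, 20.8 and 45.0 TPM. CD41neg KO libraries had 23.3, 15.1 and 17.3 TPM and CD41neg WT libraries 19.0, 8.7 and 11.5 TPM. Genotypes overlapped in both fractions, and the log2 fold changes were 0.45 ± 0.30 and 0.35 ± 0.30.

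Gzmb (chr14:56258838-56262260, minus strand) lies 173565 bases beyond Mcpt8 in the granzyme and mast cell protease cluster, and its levels differed between the genotypes more in the CD41pos than in the CD41neg libraries. It measured 1.0, 0.9 and 0.3 TPM in CD41pos KO libraries, against 5.1, 8.3 and 9.1 TPM in CD41pos WT libraries. CD41neg KO libraries had 3.3, 2.5 and 4.7 TPM and CD41neg WT libraries 6.6, 6.2 and 3.5 TPM. The CD41pos groups were separate, and the CD41neg groups overlapped. The log2 fold changes were -3.56 ± 0.53 and -0.78 ± 0.47.

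Il4 (chr11:53602982-53618669, minus strand) was detected in all 12 libraries. CD41pos KO libraries had 12.5, 10.6 and 22.6 TPM and CD41pos WT libraries 7.5, 7.4 and 9.0 TPM, without overlap and with KO 3 well above the rest. CD41neg KO libraries had 10.0, 5.4 and 13.7 TPM and CD41neg WT libraries 6.8, 7.1 and 10.6 TPM, and these overlapped. Its log2 fold changes were 0.72 ± 0.38 and 0.04 ± 0.38.

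In CD41pos HSCs 3 of the 8 genes were thus higher (Ms4a2, Cpa3, Il4) and 4 lower (Prss34, Mcpt8, Fcer1a, Gzmb) in every KO library than in every WT library, beside 21.9% and 22.4% of all tested genes. Adjusted p-values below 0.05 were found for 17.1% of all tested genes in CD41pos and 7.82% in CD41neg HSCs. In CD41neg HSCs none was higher and 3 were lower (Prss34, Mcpt8, Fcer1a), beside 18.5% and 17% of all tested genes. Since these differences chose the genes, nothing is read from the counts. In level per gene length the CD41pos KO means above 10 TPM were those of Cpa3 (110.2 ± 5.90, SD, n = 3), Hdc (57.0 ± 17.4) and Il4 (15.2 ± 6.45), with Ms4a2 next at 7.43 ± 1.97 TPM. In CD41pos WT HSCs Prss34 led with 396 ± 228 TPM, followed by Mcpt8 (157 ± 76.6), Cpa3 (48.7 ± 25.3), Hdc (37.7 ± 14.6) and Fcer1a (24.7 ± 16.3), and neighbours in that order overlapped within 1 SD except Mcpt8 and Cpa3. Across the groups, mean TPM of Prss34, Mcpt8 and Fcer1a ran from CD41pos WT over CD41neg WT and CD41pos KO down to CD41neg KO, and the fractions of WT overlapped for all 3. Ms4a2 and Hdc ran from CD41pos KO over CD41pos WT and CD41neg KO down to CD41neg WT, with highest means 4.37 and 4.36 times the lowest. Cpa3 ran from CD41pos KO over CD41neg KO and CD41pos WT down to CD41neg WT, a ratio of 2.95, and the spread of Il4 was the narrowest, a ratio of 1.91.

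**Figure D2:**
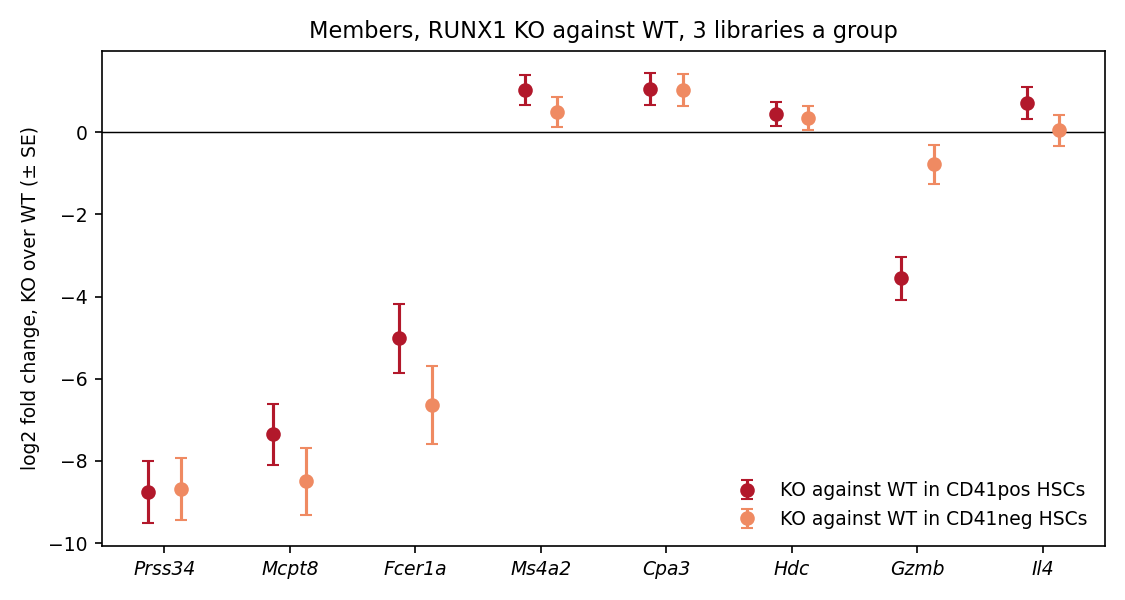
Fitted log2 fold change, KO over WT, of the 8 genes in CD41pos and CD41neg HSCs, with bars of 1 SE and 3 libraries a group. Prss34, Mcpt8 and Fcer1a lie between -8.75 and -5.02 in both fractions, Gzmb reaches -3.56 in CD41pos and -0.78 in CD41neg HSCs, and the other 4 genes lie between 0.04 and 1.05.

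The 4 WT libraries set apart by their library numbers carried much of the WT level of Prss34, Mcpt8 and Fcer1a. Prss34 measured 0.323 to 0.774 CPM in the 6 KO libraries, against 314 to 379 CPM in the 4 WT libraries and 59.5 to 128 CPM in CD41pos WT 3 and CD41neg WT 3. Mcpt8 had 0.187 to 0.807 CPM in KO, against 86.2 to 131 CPM in the 4 WT libraries and 15.4 to 64.5 CPM in both WT 3 libraries. Fcer1a had 0.0392 to 0.825 CPM in KO, against 14.6 to 23.3 CPM in the 4 WT libraries and 2.27 to 5.54 CPM in both WT 3 libraries. Both WT 3 libraries thus remained above every KO library for all 3 genes. With a term for the 4 libraries in the model the log2 fold changes of Prss34 were -7.34 ± 0.35 in CD41pos and -7.05 ± 0.35 in CD41neg HSCs, and without the 4 libraries, which leaves 1 WT library per fraction, -7.55 ± 0.35 and -6.66 ± 0.35. Without them Mcpt8 gave -6.71 and -6.20, and Fcer1a gave -3.40 and -4.32.

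Cpa3 followed the proteases within WT, though it differed from them between the genotypes. It had 38.2 to 91.6 CPM in KO, against 34.6 to 53.5 CPM in the 4 WT libraries and 16.7 to 22.0 CPM in both WT 3 libraries. Its log2 fold change without the 4 libraries was 2.03 in CD41pos and 1.93 in CD41neg HSCs, and that of Ms4a2 was 2.05 and 0.90. Hdc gave 1.04 and 0.96 in the same comparison, Gzmb -3.88 and -0.96, and Il4 0.63 and 0.30. The direction of each of the 8 differences was the same with and without the 4 libraries, while the sizes for Cpa3, Hdc and Ms4a2 in CD41pos HSCs were larger without them.

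**Figure D3:**
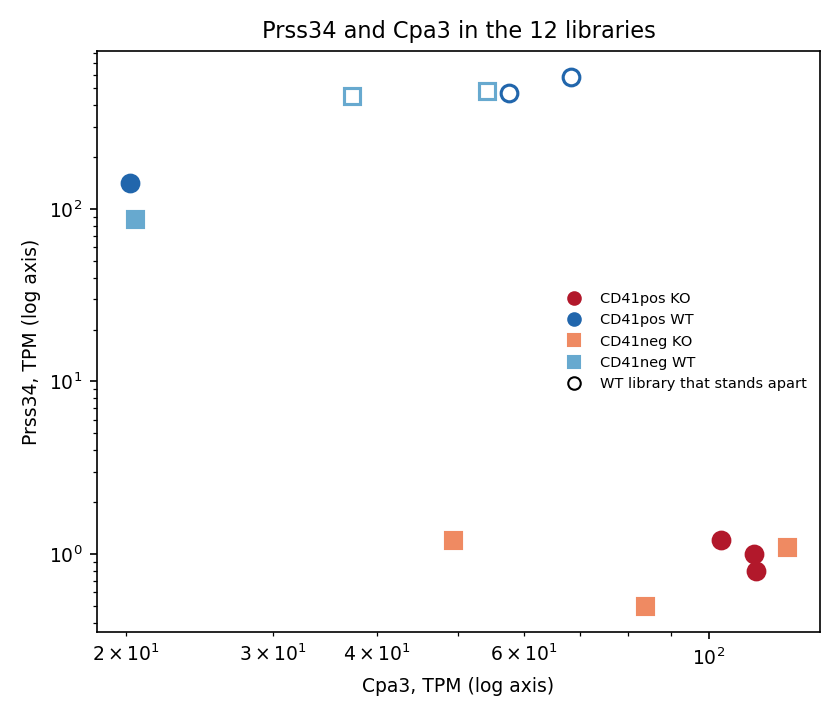
TPM of Prss34 (y axis, log) against TPM of Cpa3 (x axis, log) in the 12 libraries, with circles for CD41pos, squares for CD41neg and a colour per group. Open symbols are the 4 WT libraries set apart by their library numbers only, named in the figure as standing apart. KO libraries have 49.3 to 124 TPM of Cpa3 with at most 1.2 TPM of Prss34, and WT libraries have 20.2 to 68.3 TPM of Cpa3 with 87.5 to 579.6 TPM of Prss34.

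Between the sorted fractions, Hdc was the member called in both genotypes. In KO its level in CD41pos libraries exceeded that in every CD41neg library (57.0 ± 17.4 against 18.6 ± 4.24 TPM, SD, n = 3 each), with a log2 fold change of 1.66 ± 0.30 and an adjusted p of 0.0118 in edgeR's quasi-likelihood test. In WT the means were 37.7 ± 14.6 against 13.1 ± 5.33 TPM, again without overlap, with a log2 fold change of 1.56 ± 0.30 (edgeR adjusted p = 0.0129). In KO the call was lost without CD41pos KO 1 (edgeR adjusted p = 0.0517), CD41neg KO 2 (0.0506) or CD41neg KO 3 (0.0717), and in WT without CD41neg WT 4 (0.0551). The log2 fold changes without these libraries were between 1.37 and 1.59. In limma fits of log2(TPM + 1) the adjusted p was 0.064 in KO and 0.052 in WT, and with only the WT groups in the edgeR fit 0.0583.

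Ms4a2 and Gzmb passed the threshold in KO and went opposite ways. Ms4a2 was higher in CD41pos than in CD41neg KO HSCs (7.43 ± 1.97 against 2.6 ± 0.346 TPM), with a log2 fold change of 1.55 ± 0.37 (edgeR adjusted p = 0.0445). Gzmb was lower in CD41pos than in CD41neg KO HSCs (0.733 ± 0.379 against 3.50 ± 1.11 TPM), by -2.19 ± 0.51 on the log2 scale (edgeR adjusted p = 0.0401). The KO libraries compared here also entered the choice of the genes, so the tests of Ms4a2 and Gzmb are not independent of it. With the replicate number as a block, which pairs the KO libraries, both calls were lost: Ms4a2 gave 1.53 ± 0.32 (edgeR adjusted p = 0.0933) and Gzmb -2.26 ± 0.57 (0.149), while Hdc kept its call (1.63 ± 0.15, 0.0148). Leaving out any 1 of the 6 KO libraries also ended both calls, with edgeR adjusted p-values up to 0.196 for Ms4a2 (without CD41pos KO 2) and 0.161 for Gzmb (without CD41neg KO 3). So did leaving out CD41pos WT 1 (0.0563) or CD41pos WT 4 (0.0531) for Ms4a2, and CD41pos WT 4 (0.0606), CD41neg WT 2 (0.0583) or CD41neg WT 3 (0.0552) for Gzmb.

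The other members did not pass between the fractions. In KO, Fcer1a was higher in every CD41pos library (14, 46 and 22 reads against 2, 12 and 5 reads), but its log2 fold change of 2.10 ± 0.90 had an edgeR adjusted p of 0.327. Prss34, by contrast, gave 0.11 ± 0.72 in KO (95% interval -1.30 to 1.53, edgeR adjusted p = 0.986) and 0.18 ± 0.52 in WT (-0.84 to 1.21, adjusted p = 0.882). Fcer1a in WT gave 0.49 ± 0.69 (edgeR adjusted p = 0.734). Mcpt8 gave 1.45 ± 0.81 in KO and 0.31 ± 0.54 in WT, and Cpa3 0.41 ± 0.38 and 0.38 ± 0.39, with edgeR adjusted p-values from 0.507 to 0.795. Without the 4 WT libraries Mcpt8 gave 1.99 ± 0.59 in WT (edgeR adjusted p = 0.0487), a comparison of 1 library with 1 library whose spread is taken from the KO groups. In WT, Ms4a2 gave 1.01 ± 0.37 (edgeR adjusted p = 0.128, and 1.31 with 0.0366 without CD41pos WT 3) and Gzmb 0.59 ± 0.47 (0.506). Il4 gave 0.69 ± 0.38 in KO (edgeR adjusted p = 0.508) and 0.01 ± 0.38 in WT (0.990). In all, 3 of 8 members were called in KO, beside 2.79% of all tested genes, and 1 of 8 in WT, beside 5.59% (2.72% higher and 2.87% lower). Without overlap of the libraries, 3 were higher and 1 lower in CD41pos KO, beside 15.7% and 14.1% of all tested genes. In WT 1 was higher and none lower, beside 11.4% in either direction. Since the genes were chosen from the same libraries, nothing is read from these counts of members.

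**Figure D4:**
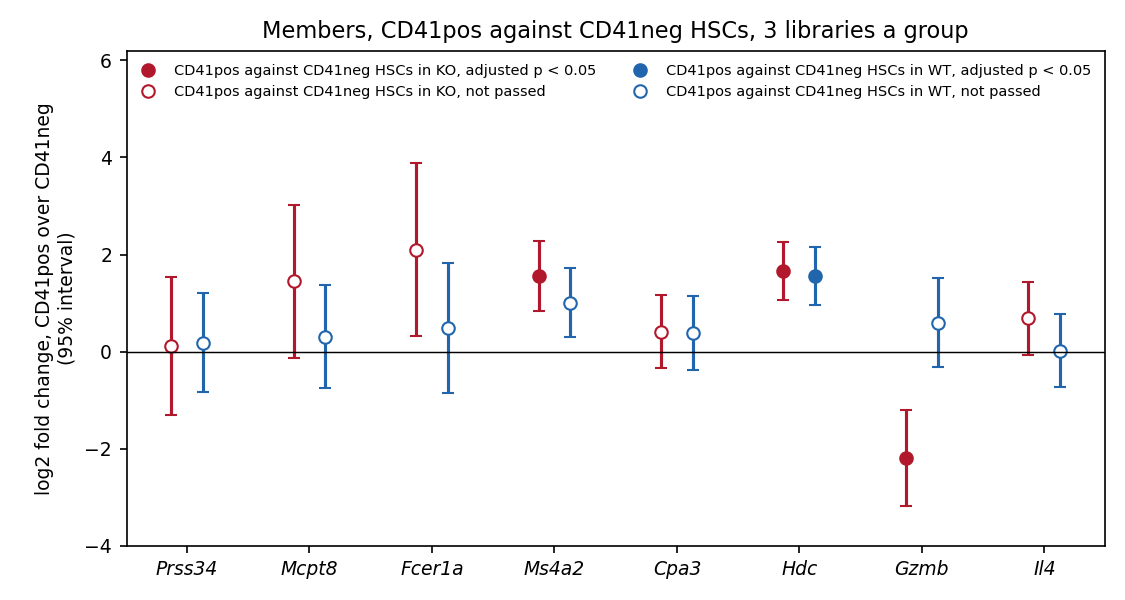
Fitted log2 fold change, CD41pos over CD41neg, of the 8 genes in KO and WT HSCs with 95% intervals, 3 libraries a group; filled points have an adjusted p below 0.05. Hdc is filled in both genotypes (1.66 and 1.56), Ms4a2 (1.55) and Gzmb (-2.19) only in KO, and Prss34 lies near 0 in both.

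The interaction of genotype and fraction is the difference between the genotype differences of the 2 fractions, which chose the members, so its values are descriptions without a test. Gzmb had the largest of the 8, -2.78 ± 0.69 on the log2 scale (SE). Fcer1a had 1.62 ± 1.13, Mcpt8 1.14 ± 0.97, Il4 0.67 ± 0.54 and Ms4a2 0.55 ± 0.51. Hdc (0.10 ± 0.42), Cpa3 (0.02 ± 0.54) and Prss34 (-0.07 ± 0.90) lay nearer to 0 than their SE. Over all 19395 genes edgeR called none (0%), with 1093 genes (5.64%) at an unadjusted p below 0.05, and DESeq2 called 72.

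Genes with the most similar pattern were ranked by Pearson's r over the 12 libraries among 10475 genes, as a description in which the libraries share genotype, replicate numbers and library order. Closest to the mean of Prss34 and Mcpt8 were Cdk5rap3 (r = 0.97), Pecr (0.964), Ccdc88b (0.96), Mthfsd (0.958), the cold-inducible RNA-binding protein gene Cirbp (0.958), Pars2 (0.957), Zfp574 (0.955) and Gtpbp3 (0.955). Their ranges were far narrower than those of the proteases: Cdk5rap3 had 71.0 to 82.8 CPM in KO and 103 to 146 CPM in WT libraries. Within WT, Cirbp (0.946) and Cdk5rap3 (0.873) kept the likeness, while Zfp574 (0.011), Pars2 (-0.335) and Gtpbp3 (-0.563) did not. Pecr (0.617), Ccdc88b (0.438) and Mthfsd (0.34) lay between. Within KO, where the proteases had few reads, Pars2 (0.906), Cdk5rap3 (0.876) and Ccdc88b (0.807) kept it. Mthfsd (0.655) and Cirbp (0.362) were lower there, and Pecr (0.068), Zfp574 (0.001) and Gtpbp3 (-0.129) did not keep it. For Zfp574 and Gtpbp3 the likeness thus rested on the genotype split.

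Closest to the mean of Cpa3 and Ms4a2 were Abcb1b (r = 0.973), the integrin alpha-6 gene Itga6 (0.965), Mbnl2 (0.964), Sptlc2 (0.951), Wipf1 (0.946), the talin gene Tln1 (0.945), Cxcr1 (0.944) and Btbd11 (0.941). Here the likeness held within each genotype, with r of 0.973 in KO and 0.987 in WT for Abcb1b, and 0.921 in KO and 0.958 in WT for Itga6. Itga6 averaged 296 CPM in CD41pos KO against 153 CPM in CD41pos WT, and 167 CPM in CD41neg KO against 99.0 CPM in CD41neg WT HSCs.

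Beyond the 8 members, 77 genes of 6 lists (granule proteases, IgE receptor signalling, mediators, cytokines with their receptors, surface molecules and transcription factors) were looked up, and 59 were tested. In CD41pos HSCs 10 rose and 12 fell in KO in edgeR's test, beside 9.79% and 7.27% of all tested genes. In CD41neg HSCs 4 rose and 5 fell, beside 3.85% and 3.97%. The median log2 fold change of the 59 genes was -0.03 in CD41pos and 0.13 in CD41neg HSCs, where all tested genes had -0.08 and -0.03. All gene lists, here and elsewhere, were chosen with earlier results of these data known. Their p-values and counts are therefore not independent of that choice, and nothing is read from the counts.

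Of 18 granule protease genes 3 were tested, among them Prss28, which reached at most 0.992 CPM, and not Tpsb2. In all 12 libraries 15 of the 18 genes stayed below 1 CPM. Those of mature mast cells were near 0: Mcpt1 had no read in any library, Mcpt4, Cma1 and Tpsab1 stayed below 1 CPM, and Tpsb2 reached 3.28 CPM in CD41pos WT 4 alone. Ctsg, the cathepsin G gene that neutrophil precursors also express, fell in KO by 1.28 ± 0.33 in CD41pos (edgeR adjusted p = 0.0224) and by 1.54 ± 0.33 in CD41neg HSCs (0.0192), and lost both calls with the term for the 4 WT libraries (0.057 and 0.0635). Its CD41pos call also ended without CD41pos WT 1, CD41pos KO 2 or CD41pos KO 3 (edgeR adjusted p up to 0.0969), and its CD41neg call without CD41neg WT 2, CD41neg WT 4, CD41neg KO 2 or CD41neg KO 3 (up to 0.0721). Prss28, which starts 8481 bases beyond Prss34 on the same strand, had no read in any KO library, 36 and 46 reads in CD41pos WT 1 and 4, 28 and 48 reads in CD41neg WT 2 and 4, and none in WT 3. Its reads thus occurred in the 4 WT libraries set apart by their library numbers.

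Genes of the signalling chain below the IgE receptor were present in every group. Of 14 tested, 4 rose and 1 fell in CD41pos HSCs, beside 9.79% and 7.27% of all tested genes. In CD41neg HSCs 2 rose and none fell, beside 3.85% and 3.97%. The median log2 fold changes of the list were 0.58 and 0.39. The kinase genes Btk (0.94 ± 0.16, edgeR adjusted p = 0.00467) and Lyn (0.78 ± 0.14, 0.00521) rose in CD41pos KO HSCs, as did the adaptor gene Gab2 (1.11 ± 0.25, 0.013). In CD41neg HSCs Lyn rose by 0.62 ± 0.14 (edgeR adjusted p = 0.0211) and Syk by 0.68 ± 0.19 (0.0473). The gamma chain gene Fcer1g fell in CD41pos HSCs, with 16.8, 11.3 and 14.2 CPM in KO against 30.3, 53.6 and 34.6 CPM in WT libraries (log2 fold change -1.48 ± 0.31, edgeR adjusted p = 0.00975, and 0.0533 without CD41pos KO 2). It is shared with receptors of other myeloid cells. The call of Gab2 ended without CD41pos KO 3 (0.0566), that of Lyn in CD41neg HSCs without CD41neg WT 4 or any CD41neg KO library (up to 0.0844), and that of Syk without 10 of the 12 libraries (up to 0.152 without CD41neg WT 4).

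Cytokine and receptor genes moved both ways. In CD41pos HSCs 3 of 12 tested rose and 4 fell, beside 9.79% and 7.27% of all tested genes. In CD41neg HSCs 2 rose and 1 fell, beside 3.85% and 3.97%. Il1rl1, which encodes the IL-33 receptor chain of mast cells, basophils and other type 2 cells, rose in both fractions: it had 51.9, 81.0 and 57.3 CPM in CD41pos KO against 14.0, 7.20 and 17.1 CPM in CD41pos WT libraries (2.31 ± 0.33, edgeR adjusted p = 0.00271). In CD41neg HSCs its level was 86.0, 173 and 103 CPM in KO against 53.7, 43.6 and 38.5 CPM in WT libraries (1.41 ± 0.32, edgeR adjusted p = 0.0236). The groups did not overlap in either fraction. The chemokine gene Ccl3 fell in CD41pos HSCs (-2.19 ± 0.43, edgeR adjusted p = 0.00767), Ccl4 rose in CD41neg HSCs (1.52 ± 0.28, 0.0101), and Csf2rb2 rose in CD41pos HSCs (1.41 ± 0.32, 0.013), though it is a close copy of Csf2rb with which reads may be shared. Il18r1 fell in CD41pos HSCs (-3.93 ± 0.83, edgeR adjusted p = 0.0105) and Il9r in CD41neg HSCs (-2.54 ± 0.66, 0.0393), both from at most 3.26 CPM. In limma fits of log2(TPM + 1) these were -0.25 (adjusted p = 0.103) and -0.09 (0.235). The CD41neg call of Il1rl1 ended without CD41neg WT 3, CD41neg WT 4, CD41neg KO 2 or CD41neg KO 3 (up to 0.0954), that of Csf2rb2 without CD41pos KO 2 (0.0665), and that of Il9r without 9 of the 12 libraries (up to 0.129 without CD41neg KO 1).

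Among 8 surface molecule genes tested, Itga2 and Cd69 rose and Enpp3 and Cd63 fell in CD41pos HSCs, and Enpp3 fell in CD41neg HSCs. Of all tested genes 9.79% rose and 7.27% fell in CD41pos HSCs, and 3.85% and 3.97% in CD41neg HSCs. Enpp3, the CD203c antigen of basophils and mast cells, had 0.164, 0.0717 and 0.123 CPM in CD41pos KO and 0.408, 0.681 and 0.420 CPM in CD41pos WT libraries (-2.05 ± 0.52, edgeR adjusted p = 0.0222). Calls of all 4 genes ended without CD41pos KO 2 or CD41pos KO 3, with edgeR adjusted p-values without CD41pos KO 2 of 0.0961 for Enpp3, 0.0989 for Cd63, 0.12 for Itga2 and 0.14 for Cd69. Cd200r3, another marker of basophils and mast cells, was detected in every library at 1.19 to 3.28 CPM in CD41pos KO and 2.09 to 9.60 CPM in CD41pos WT HSCs, and did not pass. None of the 8 genes tested for histamine storage, lipid mediators and granule matrix passed in edgeR in either fraction, beside 17.1% of all tested genes in CD41pos and 7.82% in CD41neg HSCs. At an unadjusted p below 0.05 there were 0 in CD41pos and 2 in CD41neg HSCs, beside 35.4% and 26.3% of all tested genes. DESeq2 called 0 in both fractions, and limma on log2(TPM + 1) called 0 in CD41pos and 1 in CD41neg HSCs.

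Of 14 transcription factor genes 1 rose and 4 fell in CD41pos HSCs, beside 9.79% and 7.27% of all tested genes. In CD41neg HSCs none rose and 2 fell, beside 3.85% and 3.97%. Cebpa, which directs granulocyte differentiation, had 10.1, 4.21 and 7.23 CPM in CD41pos KO against 25.5, 24.1 and 15.9 CPM in CD41pos WT libraries (-1.61 ± 0.33, edgeR adjusted p = 0.00907), and fell by 1.26 ± 0.33 in CD41neg HSCs (0.0383). Irf8, needed for monocyte and basophil progenitors in mice, fell by 0.98 ± 0.19 in CD41pos (edgeR adjusted p = 0.00752) and by 1.04 ± 0.19 in CD41neg HSCs (0.0101). Spi1, which encodes PU.1 (-1.19 ± 0.27, edgeR adjusted p = 0.0133), and Id2 (-1.27 ± 0.34, 0.0273) fell in CD41pos HSCs. Without 1 library, the CD41neg call of Cebpa was lost in 7 of 12 cases (up to 0.129 without CD41neg KO 3), that of Irf8 without CD41neg KO 3 (0.0503), that of Spi1 without CD41pos KO 2 (0.0669) or CD41pos KO 3 (0.0519), and that of Id2 without any CD41pos KO library, CD41pos WT 3 or CD41pos WT 4 (up to 0.112). Gata2, the shared factor of both lineages, had 537, 546 and 563 CPM in CD41pos KO and 709, 680.4 and 632 CPM in CD41pos WT libraries, a log2 fold change of -0.30 ± 0.13 that did not pass (edgeR adjusted p = 0.117), and 0.10 ± 0.13 in CD41neg HSCs (0.647).

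**Figure D5:**
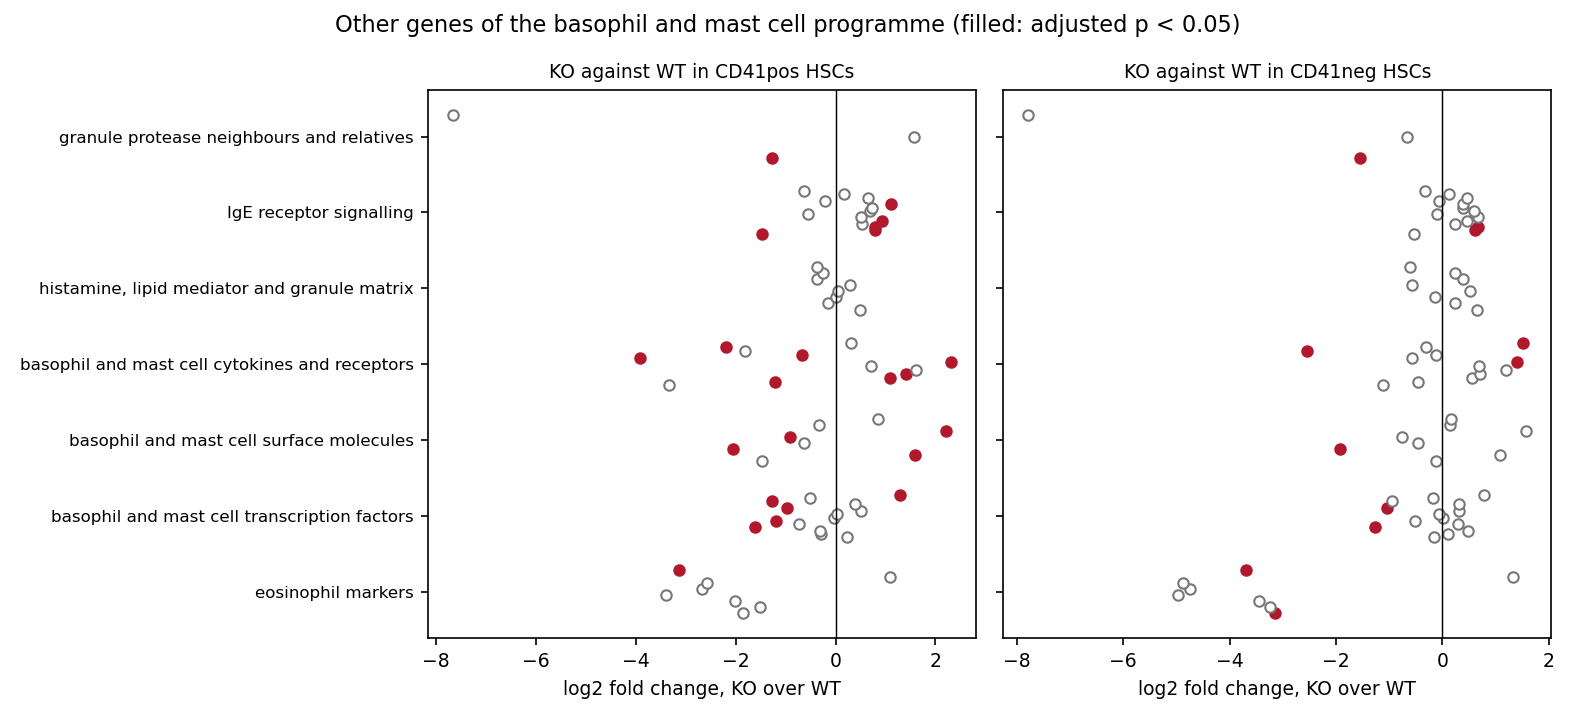
Fitted log2 fold change, KO over WT, of each tested gene (points) in 6 lists of the basophil and mast cell programme and in the eosinophil list, in CD41pos (left) and CD41neg (right) HSCs; filled points have an adjusted p below 0.05. Points lie on both sides of 0 in most lists, with Il1rl1 at 2.31 and Il18r1 at -3.93 among cytokines and receptors in CD41pos HSCs; the farthest point to the left is Prss28, whose place depends on the prior count since every KO library had no read.

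Some markers of other marrow cells were also lower in KO, and their part in the differences of the 8 genes was not tested. Of all tested genes 7.27% fell in CD41pos and 3.97% in CD41neg HSCs. Of 8 eosinophil markers, none at 0 in all libraries, 1 fell in CD41pos (Alox15, -3.14 ± 0.53, edgeR adjusted p = 0.00427) and 2 fell in CD41neg HSCs (Alox15, -3.69 ± 0.53, 0.0038, and Prg2, -3.15 ± 0.86, 0.0442). The marker Siglecf had higher means in KO, 24.0 CPM in CD41pos KO against 11.3 CPM in CD41pos WT HSCs and 34.4 CPM in CD41neg KO against 13.7 CPM in CD41neg WT HSCs, and did not pass (edgeR adjusted p = 0.0721 and 0.0567). The call of Prg2 was lost without 9 of the 12 libraries (up to 0.122 without CD41neg KO 2). Their summed level was 39.2 to 142 CPM in CD41pos KO and 193 to 296 CPM in CD41pos WT, and 71.5 to 78.6 CPM in CD41neg KO and 57.2 to 723 CPM in CD41neg WT libraries. In CD41neg WT libraries 2, 3 and 4 the eosinophil sums were 506, 723 and 57.2 CPM, beside 482, 87.5 and 452 TPM of Prss34. The sum in CD41neg WT 4 lay below that of every CD41neg KO library. Whether eosinophil markers and proteases are related across libraries was not tested.

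Of 9 neutrophil granule markers 2 fell in each fraction, beside 7.27% of all tested genes in CD41pos and 3.97% in CD41neg HSCs. Elane fell in both (-1.45 ± 0.39 in CD41pos, edgeR adjusted p = 0.0258, and -1.74 ± 0.39 in CD41neg HSCs, 0.0223). Its calls ended with the term for the 4 WT libraries (0.0569 and 0.0654), and without 4 of the 12 libraries in each fraction (up to 0.105 without CD41pos KO 2 and 0.0903 without CD41neg KO 3). Prtn3 fell in CD41pos HSCs (-1.33 ± 0.29, edgeR adjusted p = 0.0112) and Mpo in CD41neg HSCs (-1.55 ± 0.35, 0.0223), calls lost in 3 and 8 of 20 alternatives. Sums of the 9 markers were 1688 to 3832 CPM in CD41pos KO and 4584 to 5828 CPM in CD41pos WT, and 439.6 to 1187 CPM in CD41neg KO and 1949 to 2842 CPM in CD41neg WT libraries. Between the fractions, 2 of the 9 were called higher in CD41pos HSCs of each genotype, beside Hdc: Mpo (1.94 ± 0.35, edgeR adjusted p = 0.0116) and Elane (1.98 ± 0.39, 0.0183) in KO, and Elane (1.69 ± 0.39, 0.0275) and Prtn3 (1.63 ± 0.29, 0.00871) in WT. Of all tested genes 1.56% were called higher in KO and 2.72% in WT. The median log2 fold change of the 9 was -0.50 in KO and -0.84 in WT, since Ltf, Camp, Ngp, S100a8, S100a9 and Lcn2 had higher means in CD41neg HSCs of both genotypes without passing. Without 1 library, Mpo in KO lost its call when CD41neg KO 3 was left out (edgeR adjusted p = 0.0561), Elane in KO without CD41pos KO 1, CD41neg KO 2 or CD41neg KO 3 (up to 0.0996) and Elane in WT without CD41pos WT 1 or 3 or any CD41neg WT library (up to 0.0835), and Prtn3 in WT kept its call in all 12 such fits. The part of these markers in the difference of Hdc was not tested. Beside Gzmb, 1 of 9 T and NK cell markers fell in CD41pos HSCs (Nkg7, -1.30 ± 0.23, edgeR adjusted p = 0.00572), beside 7.27% of all tested genes. In CD41neg HSCs none fell, beside 3.97%. There 3 had an unadjusted p below 0.05 in edgeR, beside 26.3% of all tested genes, DESeq2 called 3 and limma on log2(TPM + 1) called 0. The sum of the 9 T and NK cell markers was 78.5 to 136 CPM in CD41pos KO and 229 to 300.2 CPM in CD41pos WT, and 48.5 to 84.4 CPM in CD41neg KO and 86.2 to 143 CPM in CD41neg WT libraries. Most of this sum was Nkg7, with means of 100.3 CPM in CD41pos KO, 247 CPM in CD41pos WT, 57.7 CPM in CD41neg KO and 101.7 CPM in CD41neg WT HSCs. The highest group mean of any other marker in the list was 6.19 CPM (Klrb1c in CD41neg WT HSCs). The sum thus mainly repeats Nkg7. Of 8 markers of plasmacytoid dendritic and plasma cells 2 fell in CD41pos (Jchain and Bst2) and 3 in CD41neg HSCs (Jchain, Xbp1 and Mzb1). The shares of all tested genes were 7.27% and 3.97%. Without the 4 WT libraries the 3 CD41neg calls were lost: Jchain gave -1.84 against -4.55 with all libraries (edgeR adjusted p = 0.141), Xbp1 -0.38 against -1.18 (0.211) and Mzb1 0.22 against -3.25. In CD41pos HSCs Jchain then gave -1.82 against -4.17 (0.0736), and Bst2 lost its call without CD41pos WT 3 (-0.58, 0.0581) or any CD41pos KO library (up to 0.0861). Calls were also lost for Jchain without CD41pos KO 2 or 3 in that fraction (up to 0.0618) and without any CD41neg KO library in the other (up to 0.0647), for Xbp1 without CD41neg WT 4, KO 2 or KO 3 (up to 0.056) and for Mzb1 without any of 7 libraries (up to 0.123). The 8 markers had sums of 392 to 428 CPM in CD41pos KO and 582 to 1057 CPM in CD41pos WT, and 385 to 498 CPM in CD41neg KO and 698 to 3777 CPM in CD41neg WT libraries.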

How the data were processed

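RNA was extracted with a miRNeasy Micro kit from sorted HSCs, and SMART-Seq v4, a kit that does not mark strand, served for the libraries, per the labels' protocols. The submitters' processing notes name the build mm10 and the tools STAR 2.6.1e, featureCounts 1.6.2, FastQC 0.11.7 and cutadapt 1.9.1. Their settings, the treatment of reads that match several gene copies and the release of the annotation used are not given in the sources used. The authors deposited a table of raw gene counts, the basis of all tests, and a TPM table of the same genes, rounded to 1 decimal, used for levels and an alternative. Names of 27 genes had been turned into dates among the counts and were taken from the TPM file, which has the same order.

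All 12 libraries entered 1 quasi-likelihood model with 4 group means in edgeR 4.0.16 (R 4.3.3, TMM scaling, filterByExpr with a minimum count of 10, which left out 16474 genes). P-values are two-sided and Benjamini-Hochberg adjusted over 19395 genes, with a threshold of 0.05; SE derive from the F statistic, and 95% intervals are 1.96 SE on each side. Sampling noise was exceeded between the libraries of a group in all 12 pairs, with chi-square values of 14.1 to 240.4 times their degrees of freedom. The main model holds no pairing term. Only the replicate block alternative pairs libraries by number, and no label says what a number stands for. For KO the pairing rests on the correlation of deviations given above. The block also has terms for WT numbers, though WT libraries with a shared number did not deviate together. Members and lists were chosen with earlier results of these data known. All 8 members are named, plus up to 4 genes per list with the smallest adjusted p in each KO against WT comparison and the 8 genes most like each pair; Gata2, Cd200r3, Prss28, Tpsb2 and other genes outside this rule were chosen after their values were seen. Positions are from GENCODE vM21 and promoter windows from RefSeq (all 8 members matched). As alternatives served DESeq2 1.42.0, edgeR with the size factors of DESeq2, no low-count filter, only the groups compared, a replicate block, a term for or removal of the 4 WT libraries, limma 3.58.1 on log2(TPM + 1) and log2(TPM + 0.1), and leaving out each library.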

Additional observations from a re-analysis of the deposited data

How the results depend on the processing

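Genes called numbered 3309 for KO against WT in CD41pos HSCs (DESeq2 5052, only the groups compared 2154, without the 4 WT libraries 7469, limma on log2(TPM + 0.1) 2090, leaving out each library 965 to 4076) and 1517 in CD41neg HSCs (DESeq2 3096, leave-one-out 341 to 3856). Between the fractions 541 were called in KO (DESeq2 1280, only the groups compared 1505, replicate block 156, without the 4 WT libraries 1464, leave-one-out 196 to 1041) and 1084 in WT (DESeq2 2413, only the groups compared 201, replicate block 42, without the 4 WT libraries 4672, leave-one-out 442 to 1166). For the interaction the count was 0 (DESeq2 72, no low-count filter 2, replicate block 1, without the 4 WT libraries 3368, limma on log2(TPM + 1) 7 and on log2(TPM + 0.1) 26, leave-one-out 0 to 2). The cause was not tested; without the 4 WT libraries only 1 WT library per fraction is left, and the median of all genes in CD41pos HSCs was 0.09 instead of -0.08; without the low-count filter that in CD41neg HSCs was 0.08 instead of -0.03. For KO against WT no paired analysis was possible because each replicate number belongs to 1 genotype. WT libraries with a shared number did not deviate together (0.1 and -0.48), so the block in WT shares only a number, while CD41pos WT 4 and CD41neg WT 2, library numbers 5 and 6, had r = 0.57, and library numbers 1 and 2 had -0.13. CD41pos WT 1 and CD41neg WT 2 have no partner of the same number, so fraction values in WT with the block rest on WT 3 and WT 4.

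Of 816 member values under 21 alternatives, 713 kept direction, side of the threshold or size, 36 moved by more than the spread between replicates, 31 lost and 3 gained the threshold and 33 values of the fraction comparisons and the interaction changed sign, none of a difference that had passed; untested Il4, KO against WT in CD41neg HSCs, ran from -0.27 to 0.37 when each library was left out. The replicate block gave -0.00825 for Il4 in WT (fraction comparison), and -0.0213 for Cpa3 and -0.0666 for Hdc in the interaction. Il4 in WT was -0.0118 without the low-count filter, -0.0126 with limma on log2(TPM + 1) and -0.0118 on log2(TPM + 0.1). Mcpt8 had an interaction of -0.51 without the 4 WT libraries and -0.11 with limma on log2(TPM + 1). Mzb1 in CD41neg HSCs was 0.22 without the 4 WT libraries and -1.02 with a term for them (edgeR adjusted p = 0.397), against -3.25 with all libraries. Leaving out each library gave for the fraction comparison -0.19 to 0.37 for Prss34 in KO, and in WT -0.26 to 0.55 for Prss34, -0.17 to 0.69 for Mcpt8 and -0.13 to 0.34 for Il4, and for the interaction -0.44 to 0.40 for Prss34, -0.28 to 0.39 for Cpa3 and -0.19 to 0.34 for Hdc.

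KO against WT in CD41pos HSCs, Prss34 ranged from -9.10 to -7.34 and Mcpt8 from -7.69 to -6.20 over all alternatives, and in CD41neg HSCs from -9.13 to -6.66 and from -8.97 to -6.09. Btk, Lyn, Il1rl1, Ccl3 and Cebpa in CD41pos HSCs and Alox15 in CD41neg HSCs passed in every alternative. In CD41neg HSCs calls of Syk, Il9r, Enpp3, Cebpa, Prg2, Ctsg, Elane, Mpo, Xbp1 and Hoxb5 were lost in 7 to 16 of 20 alternatives. That of Mzb1 was lost in 11 and changed sign in 1 more. In CD41pos HSCs calls of Cd69, Itga2, Ctsg, Elane and Id2 were lost in 7 to 10 of 20. KO levels of Prss34, Mcpt8 and Fcer1a rest on 2 to 46 reads a library, which limits how finely they compare between the fractions.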

Other observations

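Between the sorted fractions, mediator genes of basophils and mast cells were higher in CD41pos than in CD41neg HSCs where they passed; these genes were chosen after their values were seen. In KO, Alox5, which encodes the enzyme that starts leukotriene synthesis, had a log2 fold change of 1.43 ± 0.24 (edgeR adjusted p = 0.00742), and in WT its partner gene Alox5ap had 1.27 ± 0.22 (0.00839), the leukotriene C4 synthase gene Ltc4s 1.04 ± 0.26 (0.0368) and the granule proteoglycan gene Srgn 0.67 ± 0.12 (0.00834). Of the 8 genes tested in that list 1 passed in KO and 3 in WT, all higher, beside 2.79% of all tested genes in KO and 5.59% in WT. With the replicate block Alox5 kept its call (1.41 ± 0.19, edgeR adjusted p = 0.0361), while Alox5ap (0.0671), Ltc4s (0.205) and Srgn (0.0881) lost theirs; with only the WT groups in the fit, Alox5ap passed (0.0459) and Ltc4s (0.157) and Srgn (0.0819) did not. Alox5 lost its call without CD41neg KO 3 (1.30 ± 0.28, 0.0515). Ltc4s passed in 2 of the 12 fits that leave out 1 library. The adaptor gene Lat of receptor signalling was higher in CD41pos HSCs of both genotypes (1.00 ± 0.24 in KO, adjusted p = 0.0494, and 1.16 ± 0.24 in WT, 0.0186, edgeR), calls lost with the replicate block (0.0546 in KO and 0.068 in WT) and in 8 of 12 fits without 1 library in KO and 2 of 12 in WT. Il1rl1 went the other way in WT, with a log2 fold change of -1.83 ± 0.33 between CD41pos and CD41neg HSCs (edgeR adjusted p = 0.00895), and Il3ra, the alpha chain of the interleukin 3 receptor that drives basophil growth, was higher (1.20 ± 0.32, 0.049). With the block these gave adjusted p-values of 0.087 and 0.229, and Il3ra passed in 2 of the 12 fits without 1 library. Tpsb2, a mast cell tryptase gene, had 195 reads in CD41pos WT 4, 2 reads in CD41pos WT 3 and none in the other 10 libraries.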
